A study of Mus musculus with 3 samples.

Results

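Array profiles of the mouse colon carcinoma line CT26 were compared between the control column, miR-Ctrl, and the mean of both columns of cells with added miR-17~92, miR-17~92Med and miR-17~92Hi (Med and Hi below). The comparison used 3 of the 3 samples, 1 per group, and all 19938 genes that had at least 1 probe set of their own. Cells of miR-Ctrl had received a PIG vector with a control microRNA, and those of Med and Hi a PIG vector with the wild-type miR-17~92 cluster, which their labels give as expressed at medium and high levels. All 3 groups were selected in puromycin, sorted for GFP and cloned by serial dilution, so a vector and the clone that carries it cannot be told apart. According to the series' design text a group comprised 3 subclones, yet it has 1 column of values, and the sources used here do not give how the column relates to them. Without replicates no error could be attached to any difference, and none was tested. Which RNA the control column was made from was not tested either: the array gave no check on it beyond the values described here.

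MicroRNAs are short RNAs that pair with messenger RNAs, mainly through the bases of their 5′ end called the seed, and lower the stability or translation of those messengers. The miR-17~92 cluster makes 6 of them from 1 transcript, is induced by Myc, and is a known oncogene in lymphoid and epithelial tumours. A modest overexpression of such microRNAs is known to shift many targets by small amounts, rather than few by large ones.

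The mature sequences of the cluster are shown because they define what the Med and Hi cells received. They come from RefSeq, mouse assembly GRCm38.p6, plus strand of chromosome 14, with bases 2 to 8, the seed, in capitals.
mmu-miR-17-5p: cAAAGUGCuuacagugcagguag
mmu-miR-18a-5p: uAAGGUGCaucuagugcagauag
mmu-miR-19a-3p: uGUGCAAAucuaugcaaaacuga
mmu-miR-20a-5p: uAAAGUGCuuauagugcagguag
mmu-miR-19b-3p: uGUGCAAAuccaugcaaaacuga
mmu-miR-92a-3p: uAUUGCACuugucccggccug
They lie in this order from chr14:115043684-115043706 (miR-17-5p) to chr14:115044476-115044496 (miR-92a-3p). The seed AAAGUGC is shared by miR-17-5p and miR-20a-5p, and GUGCAAA by miR-19a-3p and miR-19b-3p.

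The probe sets of the cluster were not higher in the cells that carried it. On the quantile-normalized log2 scale used from here on, the precursor Mir17 stood at 5.39 in miR-Ctrl, 5.65 in Med and 5.64 in Hi. Mir20a stood at 4.23, 4.33 and 4.33, and Mir19b-1 at 5.30, 5.55 and 5.55. These 3 precursors and the host transcript Mir17hg (5.77, 6.15 and 6.12) lay within 0.37 of equality. Each of the 3 precursors had 1 and the same deposited value in all 3 columns, so their small differences came from the normalization. Mir18 was higher in the control, at 8.09 against 6.83 in Med and 6.85 in Hi, and so was Mir19a, at 6.27 against 4.78 and 4.78. A single-gene probe set was not available for Mir92-1. Such probe sets do not measure mature microRNAs.

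Precursors elsewhere in the genome that make a mature form with one of the 4 seeds were higher in the control about as often as precursors in general. Of 11 such precursors outside the cluster, Mir92b (10.46 in miR-Ctrl, 7.76 in Med, 7.84 in Hi) and Mir25 (9.73, 7.57 and 7.58) were more than 2 units higher in the control. The other members had differences between -0.12 and 0.50. Among all 258 precursors with a hairpin sequence, 43 (16.7%) were higher in the control by 1 or more, a share near that among these 11. Mir92b and Mir25 are rich in G and C (67.5% and 63.1%). Of the 65 hairpins richest in G and C, 29 were higher. Mir25 lies in an intron of Mcm7, a subunit of the replicative helicase, with Mir93 and Mir106b. Mcm7 itself differed in the opposite direction, at 8.66 in miR-Ctrl, 9.39 in Med and 9.43 in Hi.

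The control column stood apart from the other columns across the whole array. The deposited columns had medians of 6.95 in miR-Ctrl, 6.65 in Med and 6.66 in Hi, with interquartile ranges of 2.42, 3.12 and 3.08, and 265, 873 and 853 of the 35556 probe sets lay above 12. Med and Hi had the identical deposited value at 43.7% of probe sets, and miR-Ctrl and Med at 8.75%. Quantile normalization gave the columns one distribution and then averaged single-gene probe sets per gene. Genes whose level (the mean of the control value and the Med and Hi mean) reached the median of all genes, 7.22, are said to pass the filter (9969 genes). Over these, the control minus the mean of Med and Hi had an SD across genes of 1.38, while Hi minus Med had 0.243. A difference of 1 or more, which is 2-fold, separated Hi from Med at 89 genes (0.893%).

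Differences of 2-fold or more from the control ran in both directions. Among genes past the filter, 2067 (20.7%) were higher in the control column by 1 or more and 2241 (22.5%) were lower. Over all 19938 genes, the shares were 15.1% higher and 13.7% lower, and these are the figures against which the gene families below are read. The median difference over all genes was 0.30, and it was 0.20 on the deposited scale, -0.10 with columns centred on their medians and 0.06 after cyclic loess. The higher genes made up 52.5% of all genes apart by 1 or more, and 47.0%, 22.4% and 29.0% under those 3 scalings. Past the filter that share was 48.0%, and 24.0%, 11.8% and 28.4% under the same 3. The balance of directions therefore depended on the scaling, and families are described relative to the median of all genes.

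**Figure D1:**
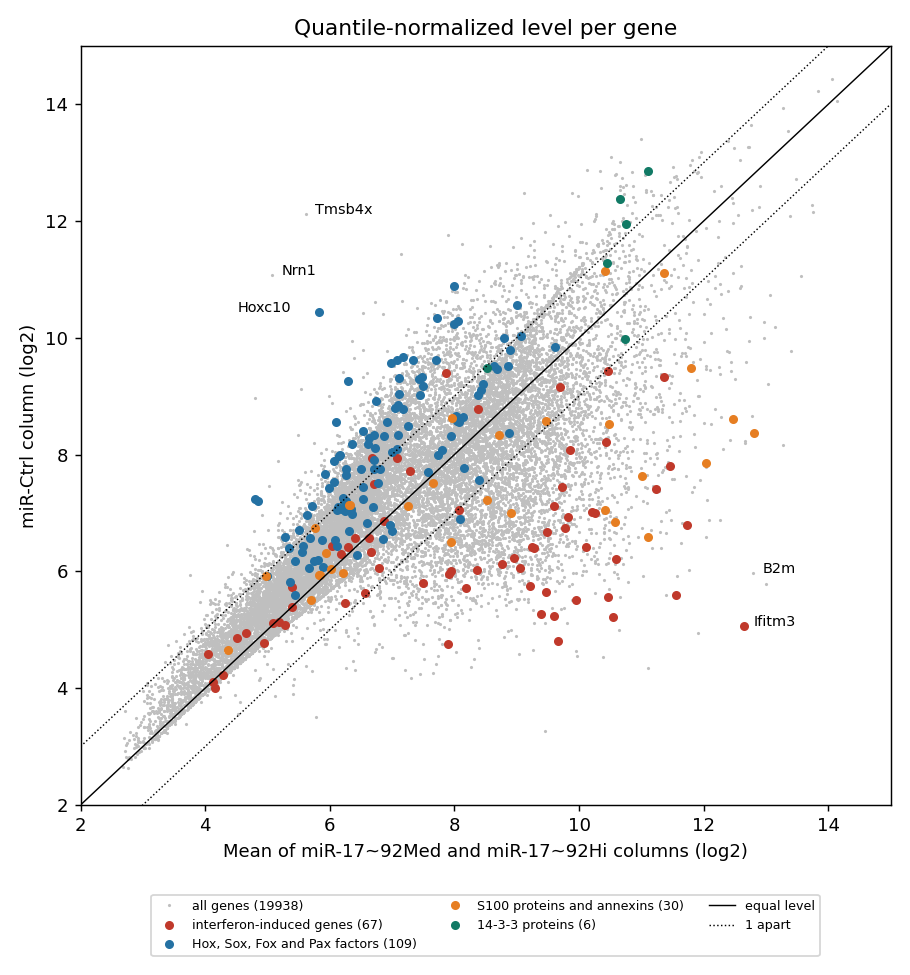
Quantile-normalized log2 level of each gene in the miR-Ctrl column (vertical) against the mean of the Med and Hi columns (horizontal), with members of 4 families coloured; the solid line is equal level and the dotted lines are 1 apart. Ifitm3 (5.06 in miR-Ctrl) and B2m (5.97) lie far below the line of equal level, Tmsb4x (12.13) and Nrn1 (11.08) far above it.

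The 64 families were matched by gene symbol, and every measured member is counted, whether or not it passed the filter. Of the 63 families with 5 or more members, 48 had a median on one side of the median of all genes under all 4 scalings, 28 above it and 20 below it. The remaining 15 changed side with the scaling. Centring shifts each column by a constant, so a family's distance from the median of all genes is the same on the deposited and centred scales. For the side of that median, here and below, the centred scaling therefore adds no separate check.

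Genes of the interferon response made up the lowest in the control column of the families with 5 or more members. Interferons are cytokines released on infection that switch on a broad set of antiviral genes, and many tumour lines keep this programme partly on. Of 67 measured members, 38 were lower by 1 or more and 2 were higher, with a median difference of -1.94. The counts of lower members ran from 38 to 41 over the 4 scalings. Ifitm3, a membrane protein that blocks virus entry, stood at 5.06 in miR-Ctrl, 12.64 in Med and 12.66 in Hi, the lowest difference of all genes past the filter (-7.60). Ifi203, of the DNA-sensing p200 family, stood at 5.60, 11.79 and 11.34. Ifit3, which binds viral RNA complexes, stood at 5.22, 11.04 and 10.05. In each of these the control value lay below the level that 95% of olfactory and vomeronasal receptor genes did not exceed in that column (6.67 in miR-Ctrl, 6.31 for the mean of Med and Hi), a gauge of background used below. Helicases that sense viral RNA showed the same placing inside the DEAD-box family: Ddx58 (RIG-I) stood at 6.58, 11.03 and 10.86, Ddx60 at 5.38, 9.76 and 9.39, and Dhx58 at 6.56, 10.67 and 10.32. Ube2l6, which attaches the interferon-induced modifier Isg15, was lower in the control by 3.08.

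Among antigen presentation genes, the shared light chain had the deepest difference. B2m, the light chain of every class I molecule, stood at 5.97 in miR-Ctrl and 12.80 in both Med and Hi, a difference of -6.83. The family as a whole was not low. Among 32 genes of the major histocompatibility family, 4 (12.5%) were lower by 1 or more and 3 (9.38%) higher, against 13.7% and 15.1% of all genes. The family median, 0.36, lay above that of all genes under all 4 scalings. Among those lower in the control, H2-Q4, a nonclassical class I gene, stood at 7.05, 9.93 and 9.52, and Cd74, the class II invariant chain, at 6.41, 8.15 and 8.04. Of the 32 members, 15 lay below the receptor gauge on both sides.

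Lysosomal genes were often lower in the control, and some cell-surface genes were among the deepest differences. Of 43 cathepsins and lysosomal proteins, 16 were lower in the control by 1 or more and 2 higher, for a median of -0.23 that lay below the median of all genes under all 4 scalings. Lamp2, a lysosomal membrane protein needed for autophagy, stood at 4.54 in miR-Ctrl, 10.37 in Med and 10.40 in Hi. Ctsl, a cysteine protease, stood at 8.16, 13.37 and 13.17, and Psap, the precursor of the saposins that help degrade sphingolipids, at 7.22, 12.10 and 12.03. Cd63, a tetraspanin of late endosomes and exosomes, stood at 5.60, 11.40 and 11.39. The CD-numbered proteins as a group were not low. Of 78 members, 12 (15.4%) were lower and 9 (11.5%) higher, against 13.7% and 15.1% of all genes. Their median, 0.42, lay above that of all genes under all 4 scalings. Among those lower in the control, Cd47, the signal that restrains phagocytes, stood at 6.57, 10.39 and 10.56, and Cd44, the hyaluronan receptor, at 5.88, 9.49 and 9.16.

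Calcium-binding S100 proteins and annexins included 12 of 30 members lower in the control by 1 or more and 0 higher. On the deposited scale, 14 were lower and 4 higher. Anxa1, an annexin with anti-inflammatory activity, stood at 6.59 in miR-Ctrl, 10.77 in Med and 11.44 in Hi. Anxa5, which binds exposed phosphatidylserine, stood at 8.36, 12.77 and 12.85, and S100a10, the partner of annexin A2, at 7.86, 12.07 and 12.01. Glutathione transferases, which conjugate electrophiles, had 8 of 20 members lower and 0 higher. Gstp1 stood at 5.92, 11.52 and 11.64. Integrin chains, the adhesion receptors for matrix, had 7 of 31 lower and 2 higher. The most different past the filter was Itgb1, the common beta chain, at 6.74, 10.81 and 10.54. The family median of the integrins (0.23) changed side of the median of all genes with the scaling.

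Genes of the mitochondrion were lower in the control on both the nuclear and the mitochondrial genome. The 2 measured messengers of the mitochondrial genome were COX2, a subunit of cytochrome oxidase, at 5.79 in miR-Ctrl, 13.02 in Med and 12.97 in Hi, and ND3, of complex I, at 4.94, 12.04 and 11.78. Of 90 nuclear respiratory chain subunits, 36 were lower by 1 or more and 6 higher, with a median of -0.52. Cox7b stood at 5.91, 11.09 and 10.96, Ndufs4 at 6.40, 11.17 and 11.18, and Atp5md at 6.25, 10.85 and 10.82. These 3 are small subunits of cytochrome oxidase, complex I and the ATP synthase. Mitochondrial ribosomal proteins, which translate the messengers of that genome, had 31 of 77 lower and 5 higher, with a median of -0.67. Depending on the scaling, 36 to 54 respiratory subunits and 31 to 45 mitochondrial ribosomal proteins were lower.

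Cytosolic ribosomal proteins were divided, with 25 of 58 lower in the control and 8 higher, and a median of -0.69. The median was -0.084 when each gene was read from its probe set with the highest mean, and over the scalings 25 to 39 were lower and 2 to 8 higher. Rpl7 stood at 7.36 in miR-Ctrl, 11.91 in Med and 11.73 in Hi, Rps6 at 9.77, 13.43 and 13.38, and Rpl6 at 8.52, 12.16 and 12.07. These genes have many processed pseudogenes, so a probe set may read more than 1 locus and single values are uncertain. Other parts of the translation machinery were low as well. Translation factors had 18 of 61 members lower and 6 higher. Aminoacyl-tRNA synthetases, which load amino acids onto tRNA, had 11 of 31 lower and 0 higher. Brix1, needed to assemble the large ribosomal subunit, stood at 4.55, 9.98 and 9.97.

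Genes of DNA replication were lower in the control wherever they were apart by 1 or more. Of 41 genes for replication helicase subunits, origin recognition and DNA polymerases, 16 were lower in the control and 0 higher, with a median of -0.42. Pcna, the sliding clamp of DNA polymerases, stood at 7.20 in miR-Ctrl, 11.23 in Med and 10.82 in Hi. Orc3 and Orc2, subunits of the origin recognition complex, were lower by 3.03 and 2.78, from control values of 5.78 and 5.94 that were below the receptor gauge. Cyclins and kinesins were mixed, with 7 of 24 cyclins lower and 4 higher, and 10 of 37 kinesins lower and 7 higher. The most different past the filter were Ccna2, the S-phase and mitotic cyclin, at 7.06, 10.30 and 9.65, and Kif11, the motor that separates spindle poles, at 6.09, 9.13 and 8.57.

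Small nucleolar RNAs, which guide chemical modification of ribosomal RNA, were the noncoding group lowest in the control. Of 31 C/D box RNAs, which guide methylation, 18 were lower by 1 or more and 0 higher. Of 23 H/ACA box RNAs, which guide pseudouridylation, 12 were lower and 1 higher. The medians were -1.37 and -1.15 and lay below the median of all genes under all 4 scalings. Snord82 stood at 4.35 in miR-Ctrl, 11.02 in Med and 11.20 in Hi, Snord104 at 6.59, 12.01 and 12.05, and Snora52 at 8.24, 12.30 and 12.54. Among long noncoding RNAs that stay in the nucleus, Malat1 stood at 6.02, 11.64 and 11.89, and Airn, the antisense transcript of the imprinted Igf2r locus, at 6.49, 9.88 and 9.48. Snhg15 went the other way, at 10.91, 8.61 and 8.83.

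Families of developmental regulators were among those highest in the control. Homeobox, Sox, Fox and Pax transcription factors pattern the embryo and many of them are silent in adult epithelium. Of 109 measured, 55 were higher in the control by 1 or more and 1 lower, and the family median lay 0.70 above that of all genes. The count of higher members ran from 35 to 62 over the 4 scalings. Hoxc10, a posterior homeobox gene, stood at 10.45 in miR-Ctrl, 5.80 in Med and 5.84 in Hi. Hoxb7 stood at 9.26, 6.24 and 6.36, and Sox1, a factor of neural progenitors, at 10.89, 7.95 and 8.05. Ebf3, of the early B cell factor family, was also among the 15 highest genes, at 9.80, 6.53 and 6.54. Wnt ligands, secreted growth and patterning factors, had 7 of 19 members higher and 1 lower, with Wnt9a at 9.46, 7.48 and 7.48. After cyclic loess, 1 Wnt ligand was higher by that amount.

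Collagens were the family with the highest median under quantile normalization, 1.17, with 26 of 44 members higher in the control and 1 lower. On the deposited scale Hox, Sox, Fox and Pax factors had a higher median than collagens (1.11 against 1.04), as with centred columns (0.82 against 0.75). The count of higher collagens was sensitive to the scaling: 5 were higher with centred columns and 15 after cyclic loess, while the median stayed above that of all genes. Col9a2, of cartilage type IX collagen, stood at 10.22 in miR-Ctrl, 7.89 in Med and 8.01 in Hi, and Col23a1, a transmembrane collagen, at 9.79, 7.44 and 7.63. Col8a1, a short-chain collagen of vessel walls, was the exception at 7.70, 9.98 and 10.11. Keratins, the intermediate filaments of epithelia, had 16 of 52 members higher and 1 lower. The pair that polymerizes together in simple epithelium was split: Krt8 stood at 9.52, 7.31 and 7.34, and Krt18 at 8.24, 10.97 and 11.86.

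Channel and receptor genes of excitable cells differed from each other in how often they were higher. Potassium channel genes had 30 of 92 members higher and 1 lower (median 0.63). Kcnq5, a channel of the neuronal M current, stood at 9.42 in miR-Ctrl, 6.10 in Med and 6.32 in Hi, and Kcng1, a silent modulatory subunit, at 10.50, 7.43 and 7.38. The 1 lower channel was Kcnma1, the large-conductance calcium-activated channel, at 6.04, 9.58 and 9.50 as the average of its probe sets. They did not give the same size: the difference was -3.50 for the average and -7.46 for the probe set with the highest mean. Sodium and calcium channel genes had 8 of 35 higher and 0 lower, and neurotransmitter receptors 17 of 88 higher and 2 lower. The latter shares were closer to the 15.1% of all genes that were higher. After cyclic loess the higher counts of the 3 groups were 13, 2 and 6, with 6.20% of all genes higher.

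The actin cytoskeleton held the gene with the highest difference. Tmsb4x, which sequesters actin monomers and is abundant in most cells, stood at 12.13 in miR-Ctrl, 5.48 in Med and 5.76 in Hi. Its relative Tmsb10 stood at 12.87, 10.12 and 10.13, and Pfn2, a profilin best known from neurons, at 11.43, 7.02 and 7.27. Over the thymosins, profilins and cofilins, 5 of 11 members were higher and 1 lower, and the median stayed above that of all genes under all 4 scalings. Acta2, smooth muscle actin, stood at 10.42, 6.54 and 6.51, while Actb, the common cytoplasmic actin, was lower in the control at 12.27, 13.69 and 13.79. Tubg2, a gamma tubulin, stood at 10.62, 6.73 and 6.72, while Tubb5, a beta tubulin of dividing cells, stood at 9.38, 12.39 and 12.13. Actins, tubulins and thymosins have near-identical copies or pseudogenes, so these single values are uncertain. Nrn1, a neuronal surface protein that promotes neurite growth, followed Tmsb4x as the next highest gene, at 11.08, 5.12 and 5.02.

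Several abundant regulators were higher in the control, but their families depended on the scaling. Of the 6 14-3-3 proteins, adaptors that bind phosphoserine, 3 were higher by 1 or more under quantile normalization and the median was 1.08, but it was 0.04 on the deposited scale and -0.25 with centred columns. Ywhaz stood at 12.85 in miR-Ctrl, 10.88 in Med and 11.32 in Hi (a difference of 1.75, and 1.15 from its probe set with the highest mean), and Ywhah at 12.39, 10.67 and 10.65. Splicing factors and hnRNPs had 19 of 49 members higher and 3 lower, but between 2 and 19 higher and 3 and 17 lower over the scalings, and their median changed side of all genes. Hnrnpd, which binds AU-rich messengers, stood at 13.09, 10.49 and 10.53. Ubiquitin and its E2 enzymes had 9 of 35 higher and 3 lower, with the median again changing side. Ube2n, the E2 for lysine-63 chains, stood at 12.48, 9.35 and 8.88. Proteasome subunits, which degrade ubiquitylated proteins, had 10 of 39 members lower in the control and 6 higher. Their median lay below that of all genes under all 4 scalings. Psma3, the most different of them past the filter, stood at 6.49, 11.67 and 11.60.

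Histone genes show how values differed within 1 family. Of 44 measured, 15 were higher in the control and 3 lower, but 7 were higher and 8 lower with centred columns, and 9 higher and 5 lower after cyclic loess. H4c3 stood at 10.60 in miR-Ctrl, 7.47 in Med and 7.78 in Hi. H2bc4, a replication-dependent H2B gene, stood at 4.64, 9.64 and 10.25, and H1f2, a linker histone, at 7.24, 10.06 and 10.08. Clustered histone genes are near-identical in sequence, and a probe set may read several of them.

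**Figure D2:**
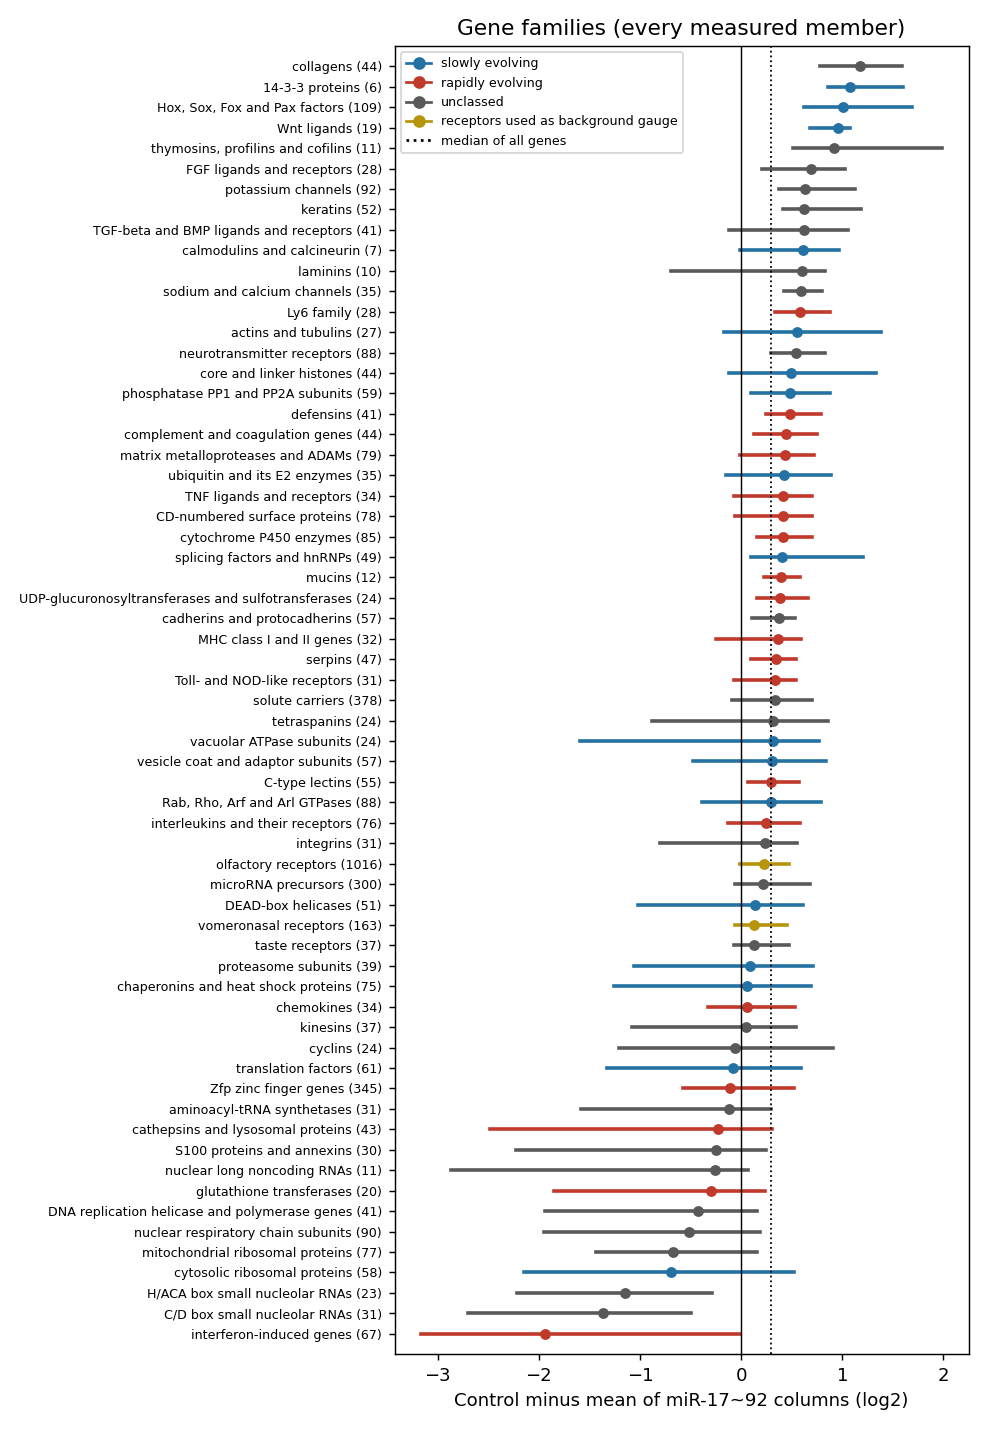
Median difference (point) and 25th to 75th percentile of members (bar), control minus the mean of Med and Hi in log2 units, for the 63 families with 5 or more measured members (number in brackets), coloured by the class assigned from general knowledge; the dotted line is the median of all genes, 0.30. Interferon-induced genes lie lowest at -1.94 and collagens highest at 1.17, and the highest families are slowly evolving or unclassed; 15 of the 63 change side of the dotted line with the scaling, 14-3-3 proteins among them.

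Grouping families by how fast their proteins are generally known to evolve did not separate the columns cleanly. Sequence conservation was not measured here; 17 families were classed as slowly evolving and 19 as rapidly evolving from general knowledge. Of 808 measured genes in slowly evolving families, 24.5% were higher in the control and 17.3% lower (median 0.41). Of 1174 genes in rapidly evolving families, 10.2% were higher and 15.7% lower (median 0.23). The corresponding values over all genes were 15.1%, 13.7% and 0.30. Among genes above the receptor gauge on both sides the classes lay closer together. The slow class had 24.7% higher and 17.8% lower (median 0.35), and the rapid class 21.7% and 18.6% (0.31). All such genes had 20.8% and 15.5% (0.31). Past the filter, the 618 slowly evolving genes had a median of 0.28, with 25.2% higher and 21.5% lower. The 372 rapidly evolving ones had a median of 0.04, with 20.4% higher and 32.0% lower, against a median of 0.17, 20.7% and 22.5% over all genes past the filter. The classes were far from uniform inside. Ribosomal proteins (slow) and interferon-induced genes (rapid) were both low, and Hox, Sox, Fox and Pax factors (slow) were high. The rapidly evolving serpins had 3 of 47 higher (6.38%) and 1 lower (2.13%), both below the shares of all genes. Of these 47, 38 lay below the receptor gauge on both sides, so their counts say little about the class. Both class medians turned negative on the deposited scale (-0.40 and -0.41) and with centred columns (-0.70 and -0.71), where the median of genes past the filter was -0.34 and -0.64. After cyclic loess they were 0.03 and -0.28, against -0.14.

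The level in the control column was set against the same gauge, the 1179 olfactory and vomeronasal receptor genes that a colon line is not known to use. Of the 1016 olfactory receptors among them, 34 (3.35%) were themselves higher in the control by 1 or more and 0 lower. Their median difference was 0.23, against 0.30 for all genes. Both sides were above the gauge for 11089 genes (55.6%) and neither for 6210 (31.1%). The control alone was above for 1009 genes (5.06%), and the miR-17~92 side alone for 1630 (8.18%). Values near this background do not give the true size of a difference, so differences such as those of Ifitm3, B2m or Tmsb4x are those of the array signal. Families were spread unevenly over the 4 classes. Of 67 interferon-induced genes, 28 were above the gauge on the miR-17~92 side alone and 0 in the control alone. Of 345 Zfp zinc finger genes, DNA-binding factors of which many repress transposons, 79 were above on the miR-17~92 side alone and 6 in the control alone, and 65 were lower in the control and 40 higher. With centred columns 82 were lower and 10 higher, and after cyclic loess 74 and 13. Past the filter the direction turned round under quantile normalization. Of 152 Zfp genes there, 33 (21.7%) were higher and 19 (12.5%) lower, against 20.7% and 22.5% of all genes past the filter. The most different of these 152 was Zfp729a, a lower one, at 6.09 in miR-Ctrl, 8.58 in Med and 8.62 in Hi. Of 109 Hox, Sox, Fox and Pax factors, 24 were above in the control alone and 2 on the other side alone. Of 92 potassium channels, the numbers were 14 and 3. All 77 mitochondrial ribosomal proteins were above the gauge on the miR-17~92 side, 11 of them there alone, and for the 41 replication genes 8 were above there alone.

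**Figure D3:**
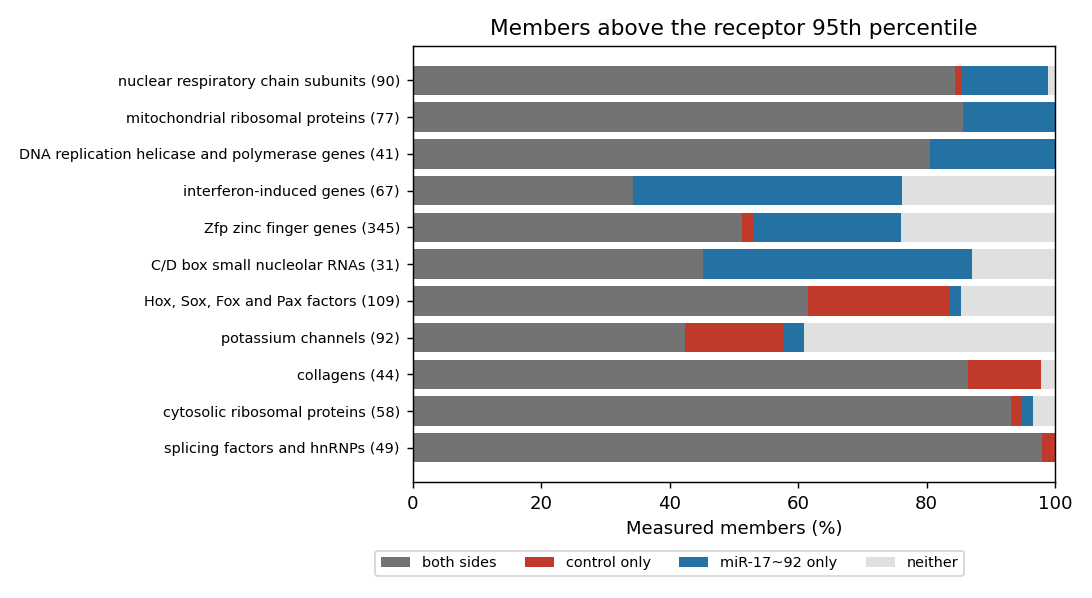
Share of measured members (percent, number in brackets) of 11 families above the 95th percentile of receptor genes on both sides, in the control column alone, in the mean of Med and Hi alone, or on neither side. Interferon-induced genes have 28 of 67 members above it on the miR-17~92 side alone, and Hox, Sox, Fox and Pax factors 24 of 109 in the control alone.

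Levels themselves did not pick out a range in which the columns agreed. With genes past the filter put in 5 equal bins by their level averaged over both sides, 27.5%, 22.2%, 15.7%, 14.9% and 23.4% were higher in the control, from the lowest bin to the highest. The shares lower were 21.9%, 24.5%, 23.3%, 21.0% and 21.7%. The SD across genes of the control difference lay between 1.34 and 1.42 in every bin, and that of Hi minus Med between 0.206 and 0.271. When genes were ranked by the control value alone, 1325 of 1994 genes in the lowest bin were lower in the control and 799 of 1994 in the highest bin were higher. That ranking shares the control value with the difference, so a tilt of this kind arises by construction.

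Genes with large differences also included several not described above. On the higher side these were Ext1, which elongates heparan sulfate (11.77 in miR-Ctrl, 7.46 in Med, 8.32 in Hi), Pygl, liver glycogen phosphorylase (9.13, 5.41 and 5.65), and Oaz2, an antizyme that limits polyamine synthesis (11.61, 8.30 and 7.94). Plpp4, a lipid phosphatase, and Apold1, an endothelial early response gene, stood at 9.94 and 10.40 in the control and at or below 6.90 in Med and Hi. Rab6b, a Golgi GTPase best known from neurons, stood at 9.65, 6.49 and 6.29. On the lower side, Emp1, an epithelial membrane protein, stood at 6.89, 12.37 and 12.17, and Nedd4, a ubiquitin ligase, at 6.88, 12.23 and 11.94. Serpinb6a, an intracellular protease inhibitor, stood at 5.88, 10.69 and 10.56, and Slc30a4, a zinc exporter, at 5.70, 10.70 and 10.26. For every one of these genes, Med and Hi were nearer to each other than either was to the control, which follows largely from choosing genes by that difference. Med and Hi were farther apart for Cxcl5, a neutrophil chemokine, at 6.67, 10.36 and 12.24, and for Ly6e, a surface protein, at 8.75, 12.88 and 10.57.

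**Figure D4:**
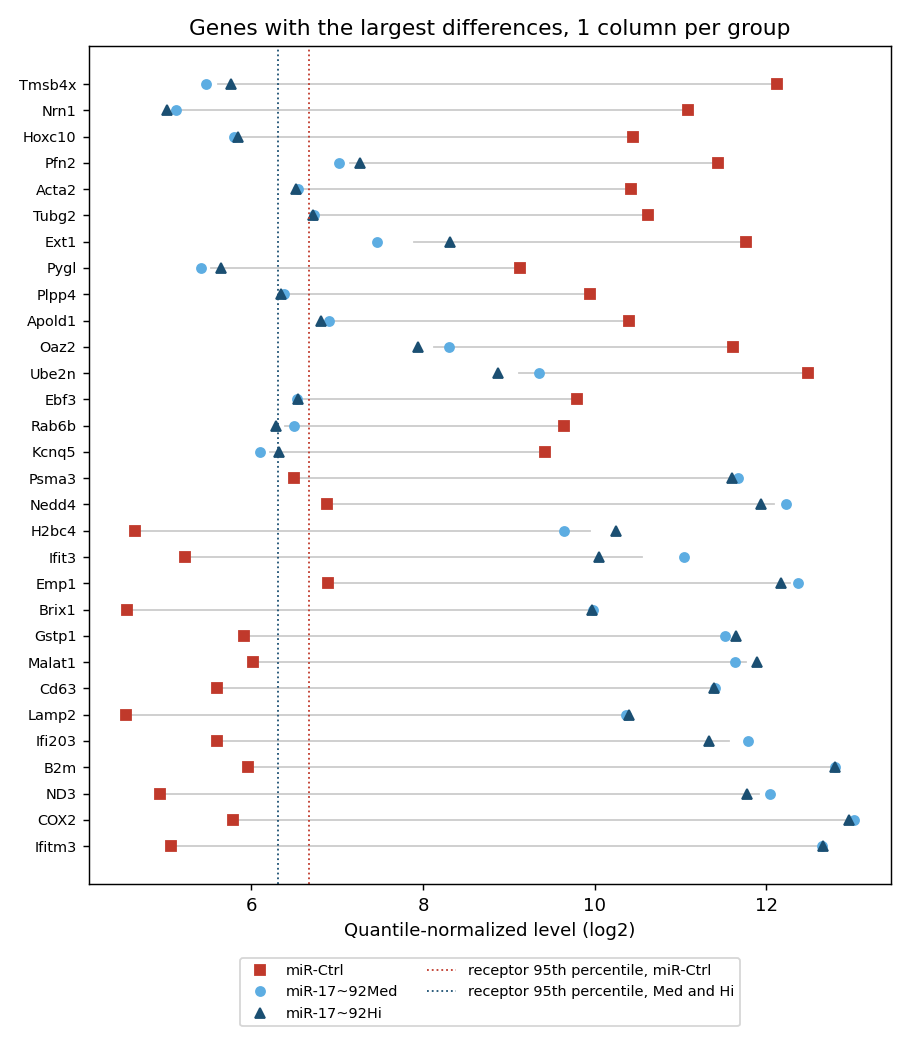
Quantile-normalized log2 level in each column (square miR-Ctrl, circle Med, triangle Hi, 1 column per group) for the 15 highest and 15 lowest differences past the filter; dotted lines mark the 95th percentile of receptor genes, 6.67 in miR-Ctrl and 6.31 in the mean of Med and Hi. Med and Hi lie close together for most genes, and 13 of the 15 control values of the lowest genes, such as Lamp2 at 4.54, lie below the background line.

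MicroRNA precursors gave a view in which the sequence behind each value is known. Hairpin sequences from RefSeq matched 258 precursor genes by name. Their level followed the G and C content of the hairpin in every column, with Spearman correlations across hairpins of 0.80 in miR-Ctrl, 0.79 in Med and 0.80 in Hi. Hairpins share base composition and array background and are not independent replicates. Of the 258, 43 were higher in the control by 1 or more and 5 lower. Of the 300 genes matched by symbol as precursors, which include a few host transcripts, 194 were below the receptor gauge on both sides, and the median (0.21) changed side of all genes with the scaling. The difference between control and the rest was related to G and C content less closely (Spearman 0.32, Pearson 0.39). In the 65 hairpins richest in G and C, 53.7% or more, 29 were higher in the control and 3 lower (median 0.64). In the other 3 bins of equal size, 4 of 65, 5 of 64 and 5 of 64 were higher, with medians of 0.12, 0.05 and 0.20, from the poorest up. By contrast, the G and C content of promoters did not order the differences of 8045 genes past the filter: the medians in 5 bins of rising content were 0.16, 0.19, 0.12, 0.11 and 0.21.

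Hairpins with large differences, and those at the poor end of the range, are given with their sequences, because their composition can be read beside their values; they were chosen after the values were seen. Capitals mark the annotated mature arms, the rest of the hairpin is in lower case, and all come from RefSeq, GRCm38.p6.
Mirlet7i: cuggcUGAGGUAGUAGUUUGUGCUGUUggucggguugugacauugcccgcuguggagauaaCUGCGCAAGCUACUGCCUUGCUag
Mir92b: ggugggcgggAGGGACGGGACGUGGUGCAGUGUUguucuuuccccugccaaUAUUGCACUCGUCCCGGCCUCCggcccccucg
Mir212: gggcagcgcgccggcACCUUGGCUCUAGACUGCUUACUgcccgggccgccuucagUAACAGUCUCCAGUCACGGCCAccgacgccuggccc
Mir25: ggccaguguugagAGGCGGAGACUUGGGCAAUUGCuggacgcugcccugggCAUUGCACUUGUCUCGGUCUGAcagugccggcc
Mir692-1: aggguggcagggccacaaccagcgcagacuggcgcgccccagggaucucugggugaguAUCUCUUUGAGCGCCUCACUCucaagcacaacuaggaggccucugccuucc
Mir680-2: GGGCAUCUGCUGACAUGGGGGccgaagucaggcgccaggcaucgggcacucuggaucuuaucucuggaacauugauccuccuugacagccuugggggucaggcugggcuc
Mir190a: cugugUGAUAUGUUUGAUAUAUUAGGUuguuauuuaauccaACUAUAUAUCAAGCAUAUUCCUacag
Mir376c: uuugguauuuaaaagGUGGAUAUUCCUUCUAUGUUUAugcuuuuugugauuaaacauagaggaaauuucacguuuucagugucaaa

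The highest of them was Mirlet7i (chr10:122985640-122985724, minus strand, 54.1% G and C), a let-7 precursor that is known for its role in differentiation, at 10.62 in miR-Ctrl, 7.08 in Med and 7.23 in Hi. Mir92b (chr3:89227116-89227198, minus strand), with 67.5% G and C, has the same seed in its 3p arm as miR-92a. Mir212 (chr11:75173388-75173478, plus strand), with 69.2%, stood at 10.02, 7.80 and 7.83. The last pair of G and C rich hairpins went the other way. Mir692-1 (chr17:6895229-6895337, minus strand) stood at 7.24, 9.21 and 9.33, and Mir680-2 (chrX:144297790-144297899, plus strand) at 6.15, 7.94 and 7.95. At the poor end, Mir190a (28.4% G and C) stood at 2.82, 2.72 and 2.75, and Mir376c (29.1%) at 2.93, 2.72 and 2.72. These values lay far below the receptor gauge, where a difference could hardly show. Past the filter were 1, 2 and 8 hairpins of the 3 poorer bins and 37 of the richest, so the bins cannot be compared at equal signal.

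**Figure D5:**
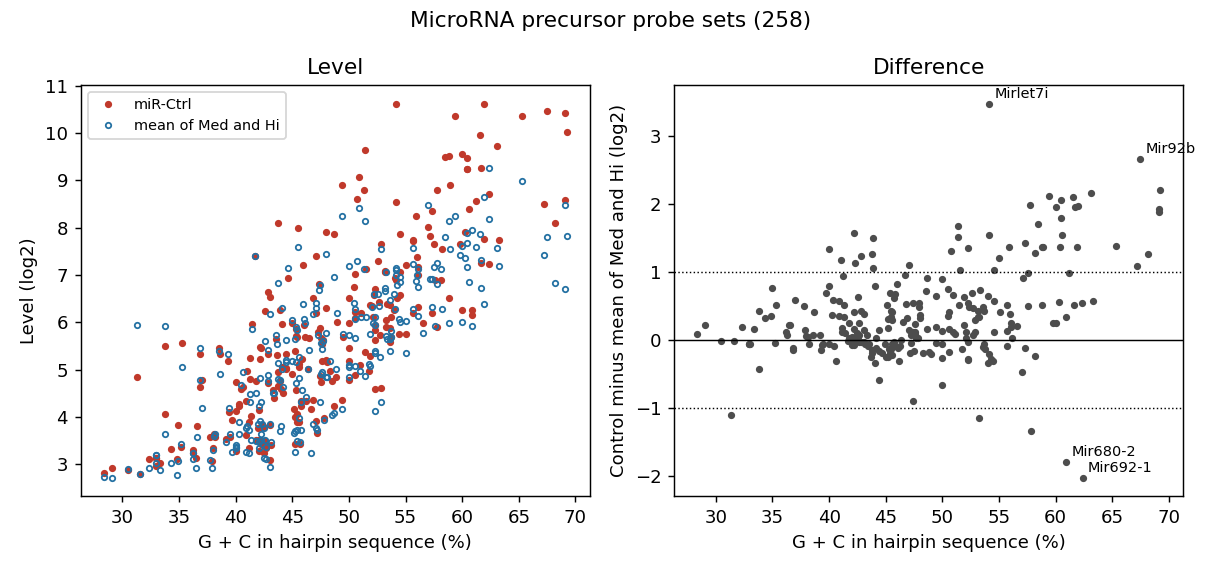
For 258 microRNA precursors, G and C content of the hairpin (percent, horizontal) against the log2 level (left; filled miR-Ctrl, open mean of Med and Hi) and against the control minus the mean of Med and Hi (right; dotted lines at 1 and -1). Levels climb with G and C content on both sides, and 29 of the 65 richest hairpins lie at or above 1 in the right panel.

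The labelled cell type was checked on markers of epithelium and of other tissues. Of 6 epithelial markers, 4 were above the receptor gauge on each side. Krt8, Krt18 and Krt19 (7.54 in miR-Ctrl, 7.48 in Med, 7.82 in Hi) were above it on both. Cldn7, a tight junction protein, was above it in the control alone (7.86, 6.02 and 6.20), and Cdh1, the epithelial cadherin, on the miR-17~92 side alone by 0.06 (6.40, 6.39 and 6.36). Epcam, at 5.94, 5.22 and 5.21, was below it in every column. Of the intestinal markers, Cdx1, a homeobox factor of the gut, was above the gauge in all columns (9.55, 7.27 and 7.45), while Vil1 and Fabp2 were below it in each. Vim, the mesenchymal intermediate filament, was high throughout, at 12.72, 13.61 and 13.37.

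Markers of 13 cell types were higher in the control as a whole and did not single out one type. Of 71 listed, 66 were measured, and 25 of these (37.9%) were higher in the control by 1 or more, against 15.1% of all genes. With centred columns 12 were higher (18.2%, against 6.32% of all genes), and after cyclic loess 11 (16.7%, against 6.20%). The 1 lower marker was Krt18. The mean of each of the 13 lists was higher in miR-Ctrl than in Med and in Hi under quantile normalization, where the median difference of all genes was 0.30. The erythroid list held 1 measured gene, and the epithelial mean was 7.58 in miR-Ctrl, 7.23 in Med and 7.46 in Hi. The largest differences were those of Acta2 of smooth muscle, Acta1 of skeletal muscle (10.12 in miR-Ctrl, 7.43 in Med, 7.65 in Hi), Cdx1 and Krt8. Snap25, a synaptic vesicle fusion protein, came next at 8.02, 5.87 and 5.85. Myod1, the muscle determination factor, stood at 8.74, 6.86 and 6.82, and Lin28a, an RNA-binding protein of stem cells, at 8.57, 6.97 and 6.96. Some markers of several types stayed below the gauge in every column. Among them were Ptprc and Adgre1 of leukocytes (6.01 and 4.99 in the control) and Alb and Afp of liver (5.76 and 5.81). Tyr of melanocytes (5.49) was below it too. Others in the same lists were above the gauge on both sides. These were Cd3e of leukocytes (8.22 in the control), Apoa1 and Hnf4a of liver (7.94 and 8.12), and Mlana and Pmel of melanocytes. In the control 38 of the 66 were above the gauge, and on the miR-17~92 side 29. The part of any other cell type in the differences was not tested.

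Annotated gene classes were counted over every measured gene. Of 675 long noncoding RNAs, 16.7% were higher in the control and 3.85% lower, with a median of 0.37, while of 18553 protein-coding genes 2787 were higher and 2649 lower, and their median was 0.30. Chromosomes were counted over genes past the filter, for which the overall shares are 20.7% (higher) and 22.5% (lower) and the median is 0.17. Only quantile-normalized values were used for this count, so its dependence on the scaling was not tested. Genes on chromosome 7 had the highest median, 0.54, with 32.9% of 753 genes higher and 13.1% lower. Chromosomes 12, 13 and 3 had the lowest, at -0.38, -0.32 and -0.20.

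Probe sets of the same gene did not always give the same difference. Of 636 genes past the filter with more than 1 probe set, 465 had at least 1 probe set apart by 1 or more. In 56 all probe sets were higher in the control, in 104 all were lower, and in 29 a probe set was higher and another lower by that amount.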

How the data were processed

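The 3 samples, 1 per group, were hybridized to an Affymetrix array after random-primed amplification of 100 ng of total RNA, per the labels' protocols. The deposited values of 35556 probe sets are on a log2 scale, as judged from their range, and Affymetrix Expression Console and GCRMA are named per the submitters' processing notes, with no role or version. Background correction, summary and any normalization came before deposit.

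The columns were quantile normalized. Probe sets of 1 gene (21789, against 1621 with several and 12146 with none) were averaged; 21698 were matched by gene number to RefSeq names (GRCm38.p6). Every per-sample column was mapped (0 left over). Python 3.11.15, pandas 2.3.3, numpy 2.4.6, R 4.3.3 and limma 3.58.1 (cyclic loess) were used, and the counting was tested on simulated data. That simulation shifted a small share of probe sets, equally often up and down. It therefore could not test the scaling where many genes differ, as they do here. Alternatives covered scaling, columns compared, filter, probe set choice, background percentile and size of difference. The genes named were the 15 highest and 15 lowest past the filter, up to 3 members per family past the filter with the largest differences of at least 1 (or up to 2 where none reached 1), and the cell type markers and Actb, Tmsb4x, B2m, Ifitm3 and Mir17hg. Gapdh, also listed in the rule, had no single-gene probe set and is not analysed here. The cluster's relatives, the displayed hairpins and other genes outside this rule were added after values were seen. Members, families and lists were chosen with earlier results of these data known. Array number, 1 per group, limits the precision, and no error could be computed.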

Additional observations from a re-analysis of the deposited data

Results flagged for a closer look

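In 4 genes past the filter the control column lay between Med and Hi with a 2-fold gap or more to each, so that the difference had opposite signs against the 2 columns. Wnt1, a Wnt ligand, stood at 7.36 in miR-Ctrl, 9.34 in Med and 6.25 in Hi, which is a control minus Med of -1.98 and a control minus Hi of 1.11. Dhrs3, a retinaldehyde reductase, stood at 8.10, 6.75 and 9.54, with differences of 1.35 and -1.44. Bpifb4 stood at 7.57, 6.41 and 8.83, with differences of 1.16 and -1.26. Eml1, a microtubule-binding protein, stood at 7.69, 6.67 and 8.81, with differences of 1.01 and -1.12. With 1 column per group these contrasts were not tested.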

How the results depend on the processing

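No paired analysis was possible because each group had 1 column and the labels carry no replicate numbers. The count of genes past the filter that were higher in the control, 2067, was 1031 on the deposited scale, 531 with columns centred on their medians and 1007 after cyclic loess; counting differences of 1.5 and 2 or more gave 957 and 311. The count lower, 2241, was 3965 with centred columns and 1018 at 2 or more. The median of slowly evolving families, 0.28, was -0.40, -0.70 and 0.034 under the 3 scalings in that order, and that of rapidly evolving families, 0.04, was -0.41, -0.71 and -0.28, and 0.31 over genes above the receptor gauge on both sides. With the 99th percentile of receptor genes as the gauge, 622 genes were above it in the control alone and 3791 on the miR-17~92 side alone. The signs of 211 of 213 named genes apart by 1 or more held under every scaling, column and probe set choice run. Most of these genes were named for their large differences, so their signs had little room to change. Of 63 family medians, 43 kept one sign in the same settings. Of the 213 named genes, 170 stayed 1 or more apart in every one of these settings and 43 did not. The named genes whose sign did not hold were Calm3, at 0 on the deposited scale and -0.29 with centred columns, and Ywhae, at -0.12 and -0.41. The 14-3-3 family median was -0.25 with centred columns. The cause of these shifts was not tested beyond the scaling itself. Signal near background limits what the lowest values show.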
